A study of Homo sapiens with 24 samples.

Results

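The kinesin motor genes were taken as every row of the deposited gene count table whose symbol is KIF or KIFC followed by a number and an optional letter from A to C, which gave 42 of the 59609 named genes. They were measured by 3′ RNA sequencing (QuantSeq forward libraries, in which reads begin near the poly(A) tail) in MDA-MB-231, a mesenchymal breast cancer cell line grown in RPMI-1640, and MDA-MB-453, another breast cancer cell line, grown in DMEM. Both lines are labelled wild-type and are described by the study as lacking the oestrogen receptor. Each line was treated for 5 days with DMSO as the control, with abemaciclib at 500 nM, with fulvestrant at 5 nM, or with both drugs at these doses (the combination), giving 8 groups of 3 libraries. Abemaciclib inhibits CDK4/6, the kinases that release cells from G1 by phosphorylating Rb, and fulvestrant degrades the oestrogen receptor.

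Kinesins are motor proteins that use ATP to walk along microtubules or to take them apart. One branch of the family works mainly in dividing cells, where its members build the bipolar spindle, move and align chromosomes, and complete cytokinesis. Many of the genes of this branch are transcribed mainly in G2 and M phase, and repression of such genes outside these phases involves the DREAM complex of Rb-related pocket proteins. Another branch carries mitochondria, vesicles, endosomes and other cargo in cells at any phase. By these roles, 14 members were listed as mitotic, 15 as transport and 13 as other (microtubule length, cilium and signalling). CENPE, a kinesin of the kinetochore, falls outside the naming rule and was listed among the mitotic partners.

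The libraries held 2873558 to 4158762 counts, and levels are given as CPM, the count of a gene scaled so that every library has the same total. Counts from mitochondrial genes made up 8.83% ± 0.213 (SD, n = 3) of the MDA-MB-231 DMSO libraries, 12.2% ± 1.05 with abemaciclib, 9.01% ± 0.261 with fulvestrant and 13.7% ± 0.319 with the combination. In MDA-MB-453 the corresponding shares were 15.2% ± 0.650, 23.8% ± 1.91, 14.3% ± 0.872 and 21.2% ± 0.381. Pairs of replicates differed by a chi-square per degree of freedom of 2.64 to 8.65, and the pairs with MDA-MB-231 fulvestrant replicate 1 (8.65 and 7.81, against 2.96 for the other pair), MDA-MB-453 fulvestrant replicate 3 (7.31 and 8.39, against 2.97) and MDA-MB-453 abemaciclib replicate 1 (7.67 and 8.18, against 3.76) stood apart. Line markers matched the labels: VIM and CD44 were at 0 counts in all 12 MDA-MB-453 libraries and at no less than 1399.7 and 233 CPM in MDA-MB-231, while FOXA1 reached at most 6.58 CPM for MDA-MB-231 and at least 165 CPM for MDA-MB-453. KRT8 was also higher in MDA-MB-453 but was present in both lines. ESR1, the oestrogen receptor gene, had counts in 3 of the 24 libraries, at most 8 counts in any of them.

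Promoter sequences (RefSeq, GRCh38.p14) are shown to set mitotic members beside transport members, since the letters of 2 short motifs differed in frequency between the classes. The CHR, or cell cycle genes homology region, was searched as TTTGAA or TTCGAA, and the CCAAT box as CCAAT, both on either strand, in windows of 250 bases before and 50 bases from the annotated start. Of the 12 mitotic members tested for expression, 10 held CHR letters (the exceptions being KIF20A and KIF2C), 10 held a CCAAT box and 9 held both. Among the 9 tested transport members with a promoter in the table, 1 (KIF5B) held CHR letters and 4 held a CCAAT box, and among 6 tested members of the other class, 1 (KIF24) held both. Over all 35116 promoter windows, 16.4% held CHR letters, 34.6% a CCAAT box and 6.38% both. These shares are per window, whereas a member with more than 1 annotated start was counted if any of its windows matched. A match of letters does not show that a factor binds there.

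The last 120 bases before the start are given 5′ to 3′ on the gene's strand, with CHR and CCAAT letters, or their reverse complements TTCAAA and ATTGG, in capitals. KIF4A (chrX:70289984-70290103 on the plus strand) and KIF18A (chr11:28108157-28108276 on the minus strand) are mitotic members with both motifs in this stretch. KIFC1 (chr6:33391703-33391822 on the plus strand) has a pair of CCAAT boxes here and its CHR letters 5 bases into the transcribed part. KIF5B (chr10:32056426-32056545 on the minus strand) and KIF1C (chr17:4997830-4997949 on the plus strand) are transport members, and KIF1C has neither motif here. The CHR letters of KIF5B lie outside the stretch shown, starting 140 bases before the start. The classes shown do not equal the response to abemaciclib in MDA-MB-231. There KIF5B was called lower (log2 fold change -0.74) and KIF18A was not called (-0.06).
KIF4A: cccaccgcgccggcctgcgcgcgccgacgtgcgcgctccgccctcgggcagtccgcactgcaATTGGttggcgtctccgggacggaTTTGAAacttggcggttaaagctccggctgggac
KIF18A: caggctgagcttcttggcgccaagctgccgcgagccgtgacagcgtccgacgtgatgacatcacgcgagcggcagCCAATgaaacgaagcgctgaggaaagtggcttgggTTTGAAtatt
KIFC1: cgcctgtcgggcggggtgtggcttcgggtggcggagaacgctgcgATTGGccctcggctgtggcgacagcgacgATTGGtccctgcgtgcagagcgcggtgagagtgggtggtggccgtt
KIF5B: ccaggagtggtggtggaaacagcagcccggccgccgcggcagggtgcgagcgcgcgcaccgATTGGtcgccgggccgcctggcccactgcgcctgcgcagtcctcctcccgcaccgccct
KIF1C: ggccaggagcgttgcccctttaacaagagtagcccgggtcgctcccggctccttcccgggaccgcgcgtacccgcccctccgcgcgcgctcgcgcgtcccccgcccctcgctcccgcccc

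Of the 42 members, 31 passed the filter on low counts in at least 1 line, 29 in MDA-MB-231, 27 in MDA-MB-453 and 25 in both. All but 2 of the mitotic members (KIF2B and KIF4B) were tested in both lines. KIF3C, KIFC3, KIF7 and KIF27 were tested in MDA-MB-231 alone, and KIF5C and KIF26A in MDA-MB-453 alone. Of the 11 members tested in neither line, KIF1A, KIF2B, KIF5A, KIF12 and KIF25 had 0 counts in all libraries, and KIF4B, KIF6, KIF17, KIF19, KIF21B and KIF26B had 1 to 30 counts in total. With 3 counts as the limit that a count of 0 allows, a group at 0 may hold up to 0.255 to 0.300 CPM, depending on the group.

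**Figure D1:**
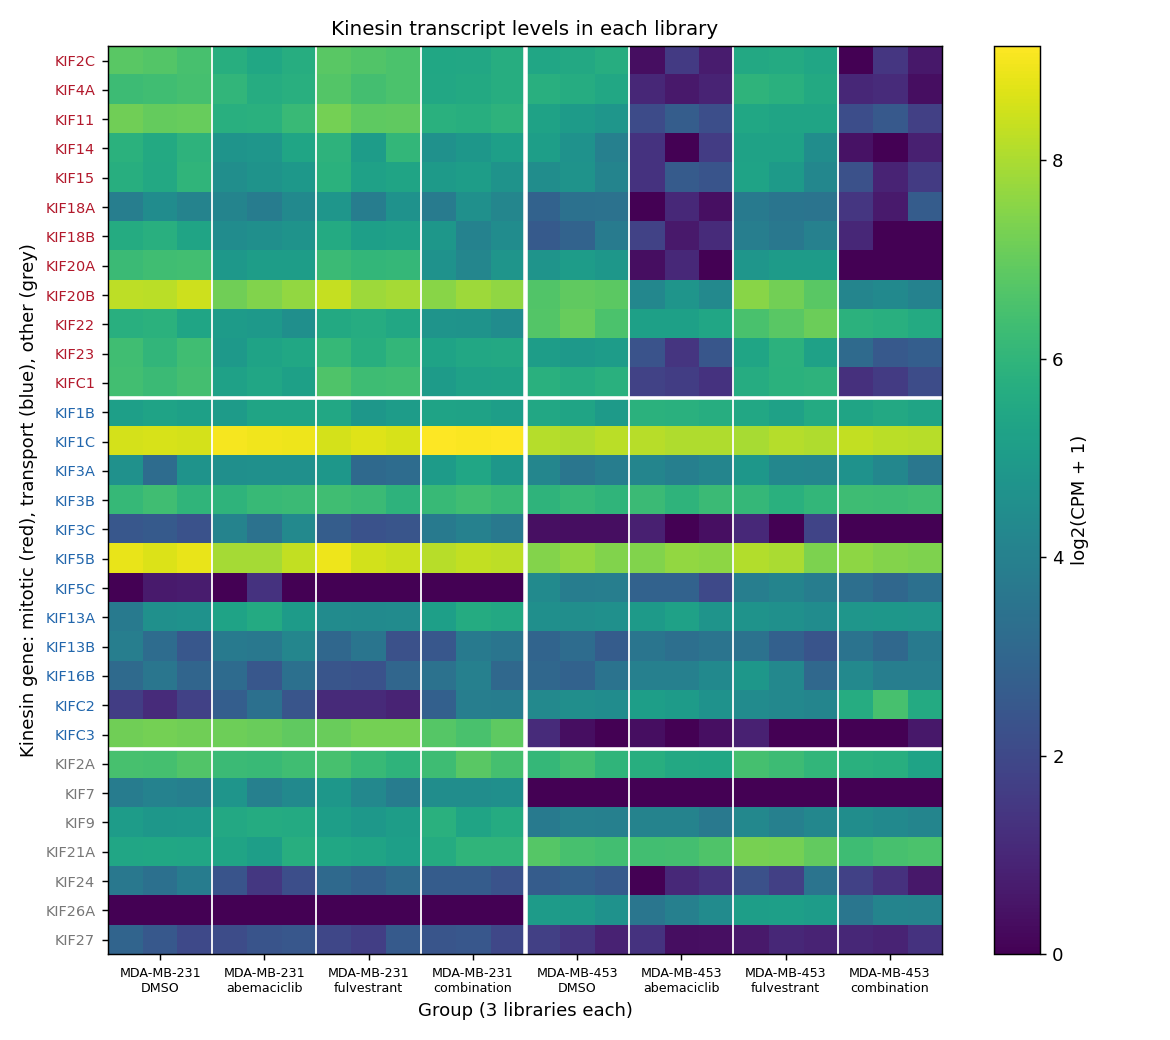
Level of the 31 tested kinesin genes, as log2(CPM + 1), in each of the 24 libraries, grouped by line and treatment and ordered by class. The mitotic block darkens in the abemaciclib and combination libraries of both lines, most in MDA-MB-453, while the transport block has no such band.

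The first question was how each class responded to CDK4/6 inhibition. Upon abemaciclib treatment the mitotic kinesins fell in both lines. In MDA-MB-231, 11 of 12 were called lower (edgeR quasi-likelihood test, Benjamini-Hochberg adjusted p below 0.05), with a median log2 fold change of -1.04 over the 12 (fold changes are given with their SE). In MDA-MB-453 all 12 were called lower, with a median of -3.60. The transport kinesins moved in both directions, with 1 called lower and 4 higher of 11 tested in MDA-MB-231 (median 0.27) and 1 lower and 4 higher of 10 in MDA-MB-453 (median 0.41). Over all kinesins, 13 were called lower and 5 higher of 29 in MDA-MB-231, where 16.9% of all 11314 tested genes were called lower and 16.9% higher. In MDA-MB-453 the counts were 16 lower and 4 higher of 27, beside 19.4% and 16.6% of 11080 genes. Treated and control groups did not overlap for 15 kinesins downwards and 5 upwards in MDA-MB-231, beside 22.4% and 21.7% of all genes, nor for 16 downwards and 5 upwards in MDA-MB-453, beside 27.6% and 17.3%. Without MDA-MB-453 abemaciclib replicate 1, which stood apart, 16 were called lower and 3 higher, and the mitotic median was -3.35. The median log2 fold change of all tested genes was -0.001 for MDA-MB-231 and -0.002 for MDA-MB-453.

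Summed over the 14 mitotic members, the level was 1092, 1043 and 1120.1 CPM in the 3 MDA-MB-231 DMSO libraries and 526, 549 and 630.0 CPM with abemaciclib, 52.4% of the DMSO mean. In MDA-MB-453 the sum went from 518, 551 and 500.2 CPM to 70.8, 81.6 and 79.1 CPM, 14.8% of the DMSO mean. Groups did not overlap in either line. The transport sum was 1141 ± 11.4 CPM (SD, n = 3) under DMSO and 1108 ± 25.5 CPM with abemaciclib in MDA-MB-231, and 653 ± 9.03 and 693 ± 10.6 CPM in MDA-MB-453. Its group means were thus at 97.1% and 106% of DMSO. Libraries overlapped in MDA-MB-231, while in MDA-MB-453 those with abemaciclib (681 to 702 CPM) all lay above those under DMSO (643 to 660 CPM). CPM totals include mitochondrial counts, and the sums were not repeated without them. A sum weighs the most counted members most. In bulk samples, fewer cells in mitosis and less transcript per cell cannot be told apart.

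**Figure D2:**
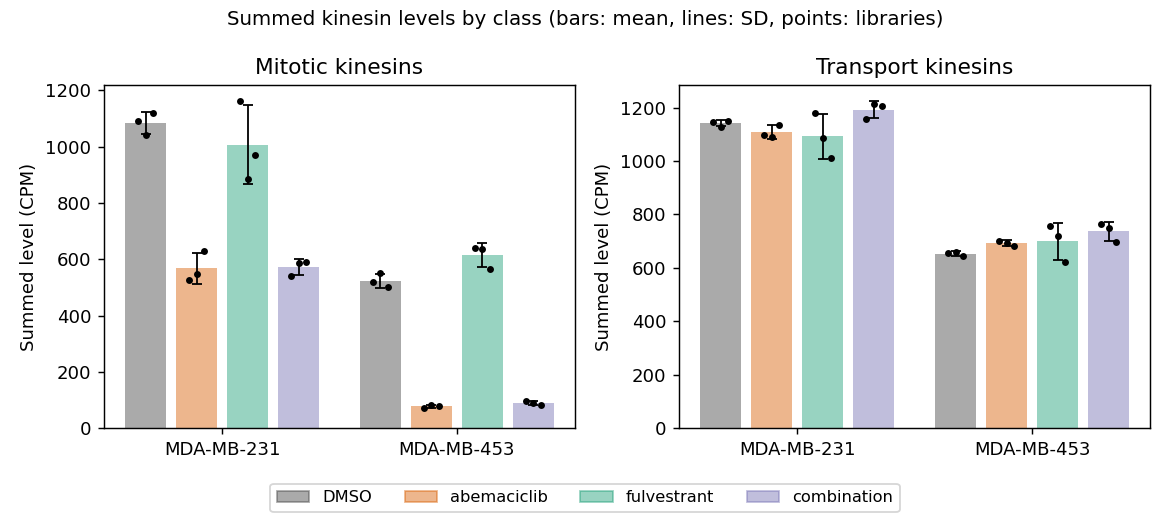
Summed level in CPM of the mitotic (left) and transport (right) kinesins in the 8 groups, with bars for the mean of 3 libraries, lines for the SD and points for the libraries. The mitotic sum is lower in the abemaciclib and combination groups of both lines, and the transport sum stays between 95.8% and 113% of the DMSO mean in the treated groups.

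The mean mitochondrial share was higher with abemaciclib in both lines. With mitochondrial genes left out of the library totals and the fit, the counts of kinesins called were again 13 lower and 5 higher for MDA-MB-231 and 16 and 4 for MDA-MB-453. The strand setting of the counting is not stated, so reads of a gene and of one overlapping it on the other strand cannot be told apart. Exons on the opposite strand overlap those of KIF20A (BRD8, CDC23), KIF4A (PDZD11), KIF24 (UBAP1), KIF2A (DIMT1), KIF9 (KLHL18), KIFC2 (FOXH1) and KIF7 (TICRR), among others. KIF4A has a near-identical copy, KIF4B, with 2 counts in all libraries, and their reads may not be separable.

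The motors that set up the bipolar spindle fell in both lines. KIF11, the motor that slides antiparallel microtubules apart to separate the spindle poles, stood at 142, 126 and 129 CPM in the DMSO libraries of MDA-MB-231 and 53.7, 54.4 and 73.2 CPM with abemaciclib, and at 37.4, 31.2 and 27.1 against 3.29, 5.47 and 3.61 CPM in MDA-MB-453. The groups were separate in both lines. The log2 fold change was -1.13 ± 0.13 (adjusted p = 4.9e-09) for MDA-MB-231 and -2.86 ± 0.27 (adjusted p = 6.1e-12) for MDA-MB-453. KIF15, which can take over pole separation, went from 53.3 ± 8.88 to 25.4 ± 3.32 CPM (SD, n = 3) in MDA-MB-231, corresponding to a log2 fold change of -1.07 ± 0.19 (adjusted p = 1.3e-05). In MDA-MB-453 its level was 21.3, 24.9 and 16.6 CPM under DMSO and 1.52, 5.20 and 4.21 CPM with abemaciclib, corresponding to a log2 fold change of -2.44 ± 0.36 (adjusted p = 3.2e-07). KIFC1, a minus-end-directed motor that focuses spindle poles and clusters extra centrosomes, had one of the tightest contrasts: 187, 181 and 199 counts under DMSO and 10, 8 and 5 counts with abemaciclib in MDA-MB-453, corresponding to a log2 fold change of -4.56 ± 0.27 (adjusted p = 5.7e-19). In MDA-MB-231 it went from 80.8 ± 4.77 to 38.0 ± 3.45 CPM, corresponding to a log2 fold change of -1.09 ± 0.15 (adjusted p = 7.8e-08).

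Both chromokinesins, which bind chromosome arms, also fell in both lines, by very different amounts in MDA-MB-453. KIF4A, which shapes condensed chromosomes and the central spindle, was at 75.9, 80.3 and 87.3 CPM in MDA-MB-231 DMSO libraries and 64.4, 50.1 and 54.0 CPM with abemaciclib. In MDA-MB-453 it was at 53.5, 50.1 and 44.3 CPM and then at 1.01, 0.547 and 0.902 CPM, or 526 counts against 9 over the 3 libraries of each group. No library of a treated group reached its controls in either line, with log2 fold changes of -0.53 ± 0.14 (adjusted p = 0.00242) and -5.77 ± 0.32 (adjusted p = 1.1e-19). KIF22, which pushes chromosome arms away from the poles, fell least of the mitotic members in MDA-MB-453. Its level there was 103, 129.7 and 93.3 CPM under DMSO and 35.9, 35.8 and 41.2 CPM with abemaciclib, with a log2 fold change of -1.45 ± 0.15 (adjusted p = 3.3e-11), while in MDA-MB-231 it was 53.3, 56.4 and 40.9 CPM under DMSO and 31.5, 28.9 and 22.7 CPM with abemaciclib, with a log2 fold change of -0.86 ± 0.18 (adjusted p = 1.7e-04).

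The motors that control microtubule ends contained the one mitotic member not called in MDA-MB-231. KIF18A, which limits microtubule growth at kinetochores so that chromosomes align, was at 14.0, 21.0 and 16.1 CPM under DMSO and 16.5, 13.4 and 19.2 CPM with abemaciclib in MDA-MB-231. These groups overlapped, and the log2 fold change was -0.06 ± 0.26 (adjusted p = 0.892), with a 95% interval of -0.59 to 0.47. In MDA-MB-453, 22, 35 and 36 counts became 0, 4 and 1 counts, or 8.66 ± 1.94 against 0.465 ± 0.566 CPM, and the log2 fold change was -4.06 ± 0.67 (adjusted p = 3.1e-06). KIF18B, which shortens astral microtubules, went from 47.6 ± 7.09 to 23.0 ± 2.11 CPM in MDA-MB-231, with a log2 fold change of -1.05 ± 0.20 (adjusted p = 4.5e-05). Its MDA-MB-453 levels were low and uneven, at 17, 24 and 47 counts under DMSO and 10, 2 and 4 counts with abemaciclib, with a log2 fold change of -2.40 ± 0.54 (adjusted p = 4.0e-04). KIF2C, a depolymerase that corrects faulty kinetochore attachments, was at 112, 104 and 88.8 CPM under DMSO and 52.8, 42.2 and 51.5 CPM with abemaciclib in MDA-MB-231. The MDA-MB-453 values were 42.1, 44.6 and 51.5 CPM under DMSO and 0.253, 1.92 and 0.601 CPM with abemaciclib. Its groups did not overlap in either line, with log2 fold changes of -1.05 ± 0.14 (adjusted p = 6.0e-08) and -5.52 ± 0.36 (adjusted p = 4.4e-17).

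The motors of the central spindle and cytokinesis were called lower in both lines. KIF20A (chr5:138178719-138187723, GRCh38, plus strand), which carries the chromosomal passenger complex to the midzone, was at 75.0, 80.0 and 81.5 CPM under DMSO and 28.7, 33.1 and 33.2 CPM with abemaciclib in MDA-MB-231. In MDA-MB-453 its counts were 88, 118 and 101 under DMSO and 1, 4 and 0 with abemaciclib, so that it was close to the limit of detection after treatment. The log2 fold changes were -1.31 ± 0.16 (adjusted p = 6.9e-09) and -5.79 ± 0.44 (adjusted p = 1.0e-14). KIF23, a component of centralspindlin, which bundles the midzone and recruits the machinery of furrowing, fell from 75.3 ± 9.33 to 36.7 ± 6.96 CPM in MDA-MB-231, with a log2 fold change of -1.04 ± 0.16 (adjusted p = 1.4e-06), and from 31.6 ± 2.27 to 3.40 ± 1.54 CPM in MDA-MB-453, with a log2 fold change of -3.13 ± 0.29 (adjusted p = 2.8e-12). KIF14, which brings citron kinase to the midbody, was at 57.0, 46.1 and 59.1 CPM under DMSO and 25.8, 26.7 and 40.3 CPM with abemaciclib in MDA-MB-231. In MDA-MB-453 it went from 33.6, 24.1 and 14.7 CPM to 1.52, 0 and 2.10 CPM, the groups being separate in both lines. Its log2 fold changes were -0.80 ± 0.20 (adjusted p = 0.00186) and -4.21 ± 0.44 (adjusted p = 9.1e-11). KIF20B, a motor of late cytokinesis, kept readable levels after treatment, at 144, 171 and 204 CPM against 298, 291 and 351 CPM under DMSO for MDA-MB-231 and at 18.0, 26.0 and 18.9 against 102, 119 and 114 CPM for MDA-MB-453. The log2 fold changes were -0.85 ± 0.12 (adjusted p = 2.2e-07) and -2.33 ± 0.16 (adjusted p = 3.2e-16).

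**Figure D3:**
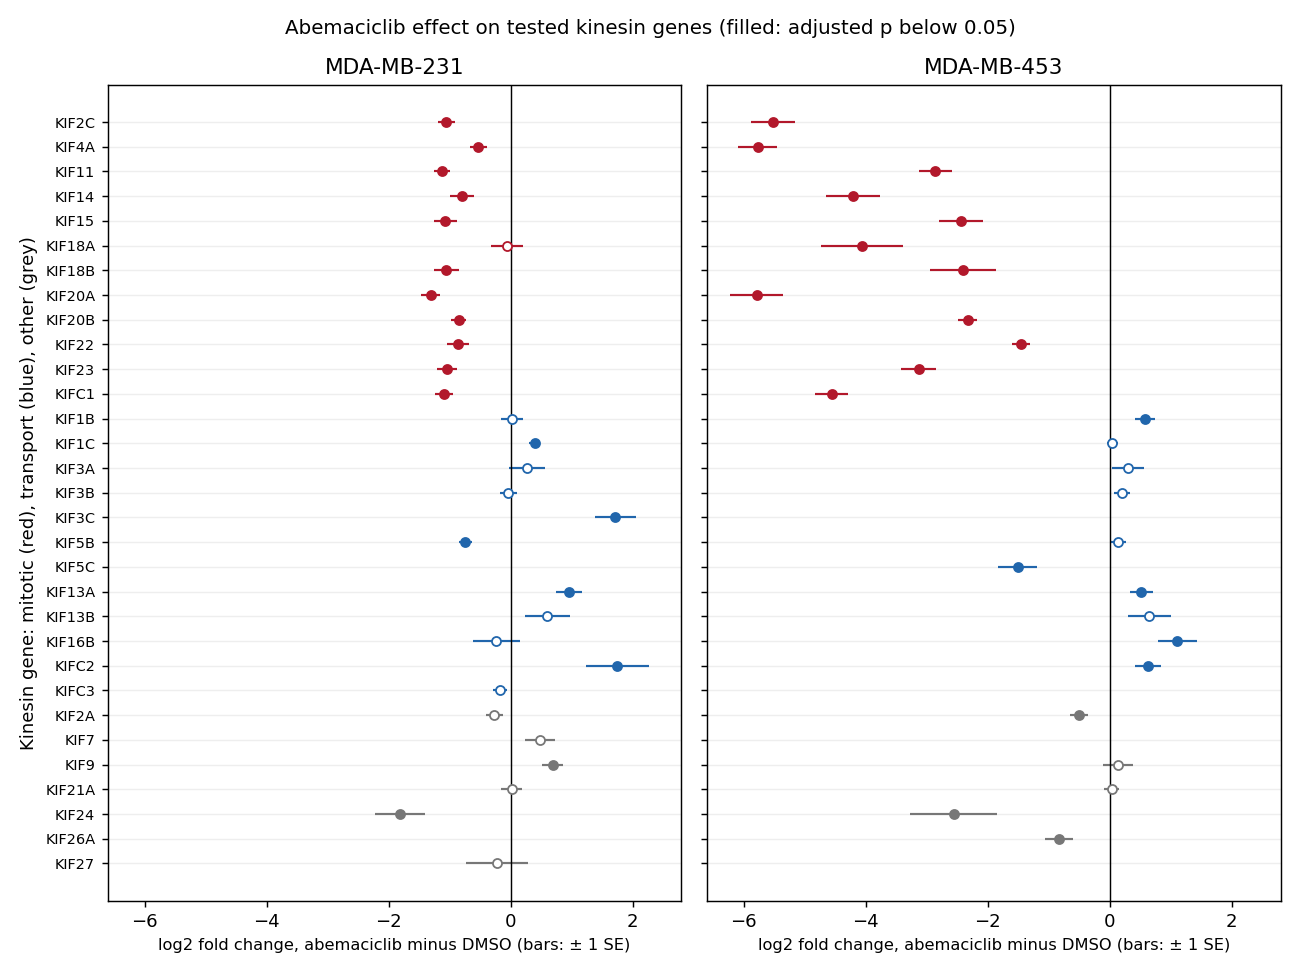
Log2 fold change of abemaciclib against DMSO, with 1 SE, for the tested kinesin genes in MDA-MB-231 (left) and MDA-MB-453 (right). Filled points have an adjusted p below 0.05. Mitotic members lie between -1.31 and -0.06 for MDA-MB-231 and between -5.79 and -1.45 for MDA-MB-453, and transport members lie on both sides of 0.

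Among the transport kinesins, the heavy chain genes of conventional kinesin included one that fell in MDA-MB-231 and another that fell in MDA-MB-453. KIF5B, the ubiquitous heavy chain that moves mitochondria and lysosomes, was at 455, 410.0 and 461 CPM in DMSO-treated MDA-MB-231 and 238, 243 and 314 CPM with abemaciclib, without overlap, corresponding to a log2 fold change of -0.74 ± 0.11 (adjusted p = 5.6e-07). In MDA-MB-453 it was at 175, 202 and 168 CPM under DMSO and 171, 204 and 192 CPM with abemaciclib, with overlapping groups and a log2 fold change of 0.14 ± 0.12 (adjusted p = 0.388). KIF5C, a heavy chain best known from neurons, was at 0 to 5 counts per library in the MDA-MB-231 groups. In MDA-MB-453 it fell from 19.9, 13.7 and 14.1 to 6.33, 6.29 and 3.01 CPM, corresponding to a log2 fold change of -1.51 ± 0.32 (adjusted p = 1.6e-04).

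Of the heterotrimeric kinesin subunits, which carry vesicles and build cilia, KIF3A and KIF3B passed the test in neither line, with log2 fold changes of 0.27 and -0.04 for MDA-MB-231 and 0.30 and 0.20 for MDA-MB-453. KIF3C, the alternative partner of KIF3A, rose in MDA-MB-231 from 4.57, 4.96 and 3.94 CPM to 15.9, 10.0 and 18.6 CPM. All 3 treated libraries were above all controls, and the log2 fold change was 1.72 ± 0.34 (adjusted p = 1.0e-04). In MDA-MB-453 it held 3 counts over the DMSO group and 4 over the abemaciclib group and was not tested.

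The vesicle motors of the KIF1 and KIF13 type rose or did not pass the test. KIF1C, a motor for dense-core vesicles and integrins, rose in MDA-MB-231 from 378, 389 and 377 to 525, 495 and 484 CPM, corresponding to a log2 fold change of 0.40 ± 0.09 (adjusted p = 3.5e-04). In MDA-MB-453 its log2 fold change was 0.04 ± 0.09 (adjusted p = 0.792). KIF1B, which carries mitochondria and synaptic vesicle precursors, had log2 fold changes of 0.02 ± 0.18 (adjusted p = 0.948) for MDA-MB-231 and 0.58 ± 0.16 (adjusted p = 0.00269) for MDA-MB-453, where it went from 43.8, 40.0 and 31.0 to 56.4, 54.7 and 50.8 CPM. KIF13A, a motor of recycling endosomes, was called higher in both lines, from 20.1 ± 6.36 to 39.2 ± 7.80 CPM in MDA-MB-231, with a log2 fold change of 0.96 ± 0.21 (adjusted p = 3.6e-04), and from 22.8, 22.2 and 23.3 to 30.4, 36.4 and 25.6 CPM in MDA-MB-453, with a log2 fold change of 0.52 ± 0.19 (adjusted p = 0.0315). The MDA-MB-453 call rested on individual libraries: without DMSO replicate 1, 2 or 3 or abemaciclib replicate 2 it was lost, the adjusted p ranging from 0.055 to 0.196, as it was without the filter on low counts (0.0651). KIF16B, which moves early endosomes, rose in MDA-MB-453 from 7.31, 6.29 and 10.2 to 14.9, 14.8 and 19.2 CPM, with a log2 fold change of 1.11 ± 0.32 (adjusted p = 0.00535), whereas its MDA-MB-231 groups overlapped, with a log2 fold change of -0.23 ± 0.38 (adjusted p = 0.686). KIF13B had log2 fold changes of 0.60 and 0.65 that did not pass the test.

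The minus-end-directed members differed from each other. KIFC2, known from transport in axons, was called higher in both lines. Its MDA-MB-231 levels were low, at 7, 4 and 8 counts under DMSO and 20, 31 and 16 counts with abemaciclib, with a log2 fold change of 1.75 ± 0.52 (adjusted p = 0.00742), and leaving out abemaciclib replicate 2 gave 1.39 and an adjusted p of 0.0707. In MDA-MB-453 it went from 18.7, 21.9 and 20.8 to 33.9, 31.5 and 24.3 CPM, with a log2 fold change of 0.63 ± 0.21 (adjusted p = 0.0152), a call lost without DMSO replicate 1 (adjusted p = 0.0663), abemaciclib replicate 1 (0.0552) or abemaciclib replicate 2 (0.051). KIFC3, a motor of adherens junctions and the Golgi, was at 146 ± 4.37 CPM (SD, n = 3) under DMSO and 129.6 ± 8.49 CPM with abemaciclib in MDA-MB-231, corresponding to a log2 fold change of -0.17 ± 0.11 (adjusted p = 0.269).

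**Figure D4:**
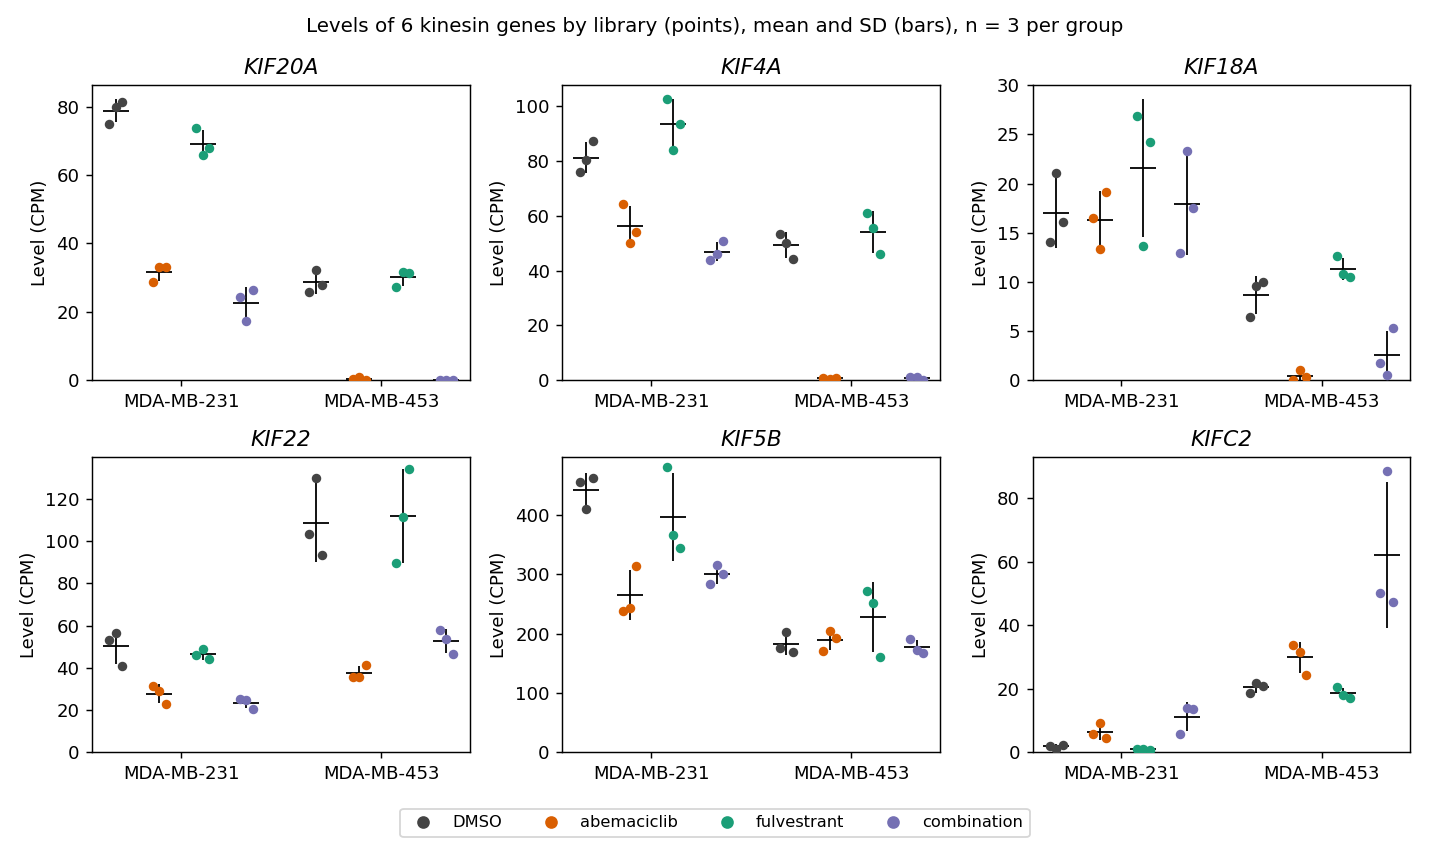
Level in CPM of 6 kinesin genes in the 24 libraries (points), with the mean and SD of each group of 3. KIF20A and KIF4A are near 0 in the abemaciclib and combination groups of MDA-MB-453, where KIF22 falls less than KIF20A, KIF4A and KIF18A. KIF18A overlaps its controls in MDA-MB-231, KIF5B falls in MDA-MB-231 alone, and KIFC2 has its highest mean in the combination group of each line.

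Of the other kinesins, KIF24, a centriolar motor that restrains cilium formation, fell in both lines. It was at 11.6, 9.34 and 13.3 CPM under DMSO and 4.26, 1.82 and 3.56 CPM with abemaciclib in MDA-MB-231, with a log2 fold change of -1.81 ± 0.41 (adjusted p = 5.4e-04). In MDA-MB-453 it had 18, 22 and 18 counts under DMSO and 0, 4 and 5 with abemaciclib, with a log2 fold change of -2.56 ± 0.72 (adjusted p = 0.00409). Treated and control libraries did not overlap, although the MDA-MB-453 treated group held only 9 counts. KIF2A, a depolymerase of spindle poles and axons, was called lower in MDA-MB-453, with a log2 fold change of -0.50 ± 0.15 (adjusted p = 0.00619), but not without DMSO replicate 2 (-0.39, adjusted p = 0.0698), and in MDA-MB-231 its log2 fold change was -0.27 ± 0.14 (adjusted p = 0.124). KIF26A, an atypical kinesin without motor activity that damps growth factor signalling, had 0 counts in all MDA-MB-231 libraries and fell in MDA-MB-453 from 31.3, 30.9 and 24.7 to 11.1, 14.8 and 20.1 CPM, with a log2 fold change of -0.83 ± 0.23 (adjusted p = 0.00275). KIF9, a motor of motile cilia, rose in MDA-MB-231 from 32.0, 27.4 and 28.2 to 44.9, 48.9 and 47.7 CPM, with a log2 fold change of 0.69 ± 0.17 (adjusted p = 0.00137), and had a log2 fold change of 0.14 in MDA-MB-453. KIF7, a regulator of Hedgehog signalling in the cilium, KIF21A, which restrains microtubule growth at the cell cortex, and KIF27, a relative of KIF7, did not pass the test in any line where they were tested, with log2 fold changes from -0.22 to 0.48.

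The genes that work with the kinesins were counted in the same fits. Of 10 partners of mitotic kinesins, 9 were called lower in MDA-MB-231 (median log2 fold change -0.81) and 10 in MDA-MB-453 (median -4.17). The share of all tested genes called lower was 16.9% for the first line, beside 19.4% for the second. AURKB, the kinase of the passenger complex that KIF20A carries, had log2 fold changes of -1.25 ± 0.11 (adjusted p = 3.6e-12) and -5.24 ± 0.41 (adjusted p = 1.1e-14). CENPE, itself a kinesin, had -0.81 ± 0.13 (adjusted p = 2.8e-06) and -6.02 ± 0.38 (adjusted p = 6.7e-18). PRC1, the antiparallel microtubule bundler that KIF4A brings to the midzone, had -0.87 ± 0.16 (adjusted p = 2.6e-05) and -5.40 ± 0.53 (adjusted p = 1.3e-11). CIT, the citron kinase that KIF14 recruits, was the one partner not called in MDA-MB-231, with a log2 fold change of -0.16 ± 0.23 (adjusted p = 0.631), and in MDA-MB-453 it went from 123 counts to 1. The smallest fall in MDA-MB-453 was that of ECT2, the exchange factor that centralspindlin recruits, with a log2 fold change of -0.57 ± 0.14 (adjusted p = 7.6e-04).

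The partners on the cargo side (light chains, adaptors and mitochondrial receptors) had 2 called lower and 3 higher of 14 in MDA-MB-231 (median 0.01), near the 16.9% and 16.9% of all genes. In MDA-MB-453, 1 was called lower and 6 higher of 15 (median 0.22), where all genes had 19.4% and 16.6%. MAPK8IP3, an adaptor of conventional kinesin, rose in both lines, with log2 fold changes of 1.89 ± 0.56 (adjusted p = 0.00749) and 2.29 ± 0.48 (adjusted p = 1.4e-04). The light chain gene KLC2 was called lower in MDA-MB-231, at -0.86 ± 0.28 (adjusted p = 0.016). Among 15 tested genes of dynein and dynactin, the motor complex that walks the opposite way, 1 was called lower and 3 higher for MDA-MB-231 and 3 lower and 1 higher for MDA-MB-453, near or below the same shares of all genes. DYNC1LI1, a light intermediate chain of dynein, was lower in both, with log2 fold changes of -1.05 ± 0.13 (adjusted p = 1.4e-08) and -0.51 ± 0.17 (adjusted p = 0.0184).

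The difference in the abemaciclib effect between the lines was tested in 1 model of all 24 libraries, with negative values where the effect was lower in MDA-MB-453. Of 31 kinesins in this model, 11 differed downwards and 1 upwards, beside 13% and 7.72% of 12750 genes. The mitotic class held 10 of the 11, with a median difference of -2.75 in log2 over its 12 members, and the median over all genes was -0.073. KIF4A had the largest difference, -5.23 ± 0.35 (adjusted p = 6.4e-17), followed by KIF20A with -4.47 ± 0.47 (adjusted p = 3.0e-10) and KIF2C with -4.46 ± 0.39 (adjusted p = 1.0e-12). KIF18A, whose levels overlapped in MDA-MB-231, differed by -4.00 ± 0.71 (adjusted p = 2.6e-05). KIF18B and KIF22 did not pass the test of the difference, at -1.34 ± 0.53 (adjusted p = 0.068) and -0.58 ± 0.23 (adjusted p = 0.0705). KIF22 was called on leaving out any one of DMSO replicates 1 and 2 and abemaciclib replicate 3 of MDA-MB-231 and DMSO replicates 1 and 3 and abemaciclib replicate 3 of MDA-MB-453 (-0.69 to -0.78). KIF18B was called without MDA-MB-231 DMSO replicate 2, MDA-MB-453 DMSO replicate 1 or MDA-MB-453 abemaciclib replicate 1 (-1.51 to -2.12). The only upward difference was that of KIF5B, 0.88 ± 0.18 (adjusted p = 1.6e-04), and the only transport member that differed downwards was KIF1C, -0.35 ± 0.12 (adjusted p = 0.0265). Of the transport members called in a single line, KIF16B, at 1.35 ± 0.51 (adjusted p = 0.0522), and KIF1B, at 0.57 ± 0.24 (adjusted p = 0.0808), did not pass. KIF3C and KIF5C, called in the line where they were expressed, gave -1.30 ± 1.41 (adjusted p = 0.601) and -1.75 ± 1.19 (adjusted p = 0.344), values that rest on a few counts in the other line, that of KIF5C turning to 2.14 without MDA-MB-231 abemaciclib replicate 2.

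These fits start from different levels. Under DMSO, 18 kinesins were called lower and 5 higher in MDA-MB-453 than in MDA-MB-231, beside 35.6% and 34.3% of 12750 genes, and line and culture medium cannot be told apart here. Of the 12 mitotic members 11 were lower in MDA-MB-453 (median -1.15 over the 12), from -2.46 ± 0.29 (adjusted p = 2.3e-10) for KIF18B to -0.54 ± 0.15 (adjusted p = 0.00123) for KIFC1. KIF22 was the exception, at 109 ± 18.8 CPM in MDA-MB-453 against 50.2 ± 8.19 CPM in MDA-MB-231, corresponding to a log2 difference of 1.18 ± 0.16 (adjusted p = 4.6e-09). The KIF18A call was lost without MDA-MB-231 DMSO replicate 2 or MDA-MB-453 DMSO replicate 1. Outside the mitotic class, the KIF27 call was lost without MDA-MB-231 DMSO replicate 1 or MDA-MB-453 DMSO replicate 3.

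Several transport and other members differed widely between the lines. KIFC3 was at 144, 151 and 143 CPM in MDA-MB-231 DMSO libraries and at 4, 1 and 0 counts in MDA-MB-453, corresponding to a log2 difference of -8.12 ± 0.31 (adjusted p = 7.0e-28). KIF5C had the opposite pattern, with 0, 2 and 2 counts for MDA-MB-231 and 68, 50 and 51 for MDA-MB-453, at 5.26 ± 0.64 (adjusted p = 1.0e-09). KIFC2 was likewise higher in MDA-MB-453, at 18.7, 21.9 and 20.8 against 2.13, 1.17 and 2.42 CPM, at 3.47 ± 0.37 (adjusted p = 1.3e-11). KIF7 had 44, 53 and 48 counts in MDA-MB-231 and 0 in every MDA-MB-453 library, at least 51.6-fold lower in the DMSO group against the limit of 3 counts per group. KIF26A had 107, 113 and 89 counts in MDA-MB-453 and 0 in every MDA-MB-231 library, at least 96.4-fold higher by the same limit. KIF3C held 45 counts over the MDA-MB-231 group and 3 over the MDA-MB-453 group, a ratio of 16.0 (95% counting interval 5.14 to 80.6). KIF5B was lower in MDA-MB-453 by a smaller margin, at -1.22 ± 0.13 (adjusted p = 5.8e-12).

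With both drugs, the kinesins were set against DMSO in the same way, so the comparison shares its control libraries with that of abemaciclib alone. In MDA-MB-231, 14 members were called lower and 7 higher of 29 (18.3% and 17% of all genes), with 11 of 12 mitotic members lower (median -1.01) and 2 transport members lower and 5 higher (median 0.31). In MDA-MB-453, 16 were called lower and 2 higher of 27 (20% and 17.6%), with all 12 mitotic members lower (median -3.88) and 1 transport member lower and 2 higher (median 0.27). With nuclear genes only, these counts of calls were the same. The mitotic sum stood at 52.8% of DMSO for MDA-MB-231 and 17.1% for MDA-MB-453. KIF20A fell from 88, 118 and 101 counts to 0 in all 3 MDA-MB-453 combination libraries, at least 98.1-fold lower. KIF18B went from 88 to 3 counts, a ratio of 28.1 (95% counting interval 9.31 to 139). The largest called change in MDA-MB-231 was the rise of KIFC2 from 2.13, 1.17 and 2.42 to 5.93, 13.9 and 13.7 CPM, corresponding to a log2 fold change of 2.53 ± 0.50 (adjusted p = 8.2e-05).

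KIF18A again did not pass the test in MDA-MB-231, at 0.07 ± 0.26 (adjusted p = 0.866), where its combination libraries were at 12.9, 23.3 and 17.5 CPM. Its call in MDA-MB-453, at -1.70 ± 0.51 (adjusted p = 0.00643), was lost without combination replicate 2 (-1.23, adjusted p = 0.0639), and without combination replicate 3 its value was -2.92. Also in MDA-MB-453, the KIF24 call was lost without DMSO replicate 2 or combination replicate 2 or 3. The KIF5C call there was lost without DMSO replicate 1 or combination replicate 2, and the KIF2A call without combination replicate 3. In MDA-MB-231 the KIF24 call was lost without DMSO replicate 3 or combination replicate 3. KIF3A and KIF21A, which were not called with abemaciclib alone, were called higher in the MDA-MB-231 combination, at 0.81 ± 0.29 (adjusted p = 0.0281) and 0.47 ± 0.16 (adjusted p = 0.0225). The KIF3A call was lost without DMSO replicate 2 or combination replicate 2 and in DESeq2, and the KIF21A call without DMSO replicate 1 or combination replicate 2 or 3. In MDA-MB-453 the KIFC2 level was 50.1, 88.6 and 47.5 CPM against 18.7, 21.9 and 20.8 CPM under DMSO, at 1.59 ± 0.20 (adjusted p = 1.1e-08), and KIF16B rose by 0.95 ± 0.33 (adjusted p = 0.0181), which was not called without DMSO replicate 1 or 2 or combination replicate 1.

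Set against abemaciclib directly, the combination differed in 1 kinesin by the test in MDA-MB-453. None of the 29 members in MDA-MB-231 was called by edgeR, with 4 at an unadjusted p under 0.05 (0.0177% of all genes were called lower and 0.00884% higher). DESeq2 called none either, but it gave an adjusted p to 2981 genes only, against 11314 in edgeR. A member could thus go uncalled there for lack of an adjusted p. In MDA-MB-453, 7 of 27 were at an unadjusted p under 0.05, 5 of them mitotic, beside 1666 of 11080 genes. KIFC2 was the only one called (1.21% and 1.25% of all genes were called lower and higher). It was at 33.9, 31.5 and 24.3 CPM with abemaciclib and 50.1, 88.6 and 47.5 CPM with the combination, without overlap, and the log2 fold change was 0.96 ± 0.19 (adjusted p = 0.0021). Combination replicate 2 stood well above the other two libraries, and without it the log2 fold change was 0.61 (adjusted p = 0.17). KIF18A had the largest positive value, 2.36 ± 0.77 (adjusted p = 0.0915), on 0, 4 and 1 counts with abemaciclib and 5, 2 and 21 with the combination. It did not pass the test, and it was called when low-count genes were not filtered out. The largest negative values were those of KIF20A, which went from 5 counts to 0, and KIF18B, which went from 16 counts to 3. The log2 fold change of KIF18B was -2.24 (95% interval -4.08 to -0.40), and neither gene passed the test.

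With fulvestrant alone, 1 kinesin passed the test in MDA-MB-453. None of 29 in MDA-MB-231 was called by edgeR or DESeq2, 2 (KIF2A and KIF20B) were at an unadjusted p under 0.05, and 0% of all 11314 genes were called in either direction. Log2 fold changes ran from -0.82 (KIFC2) to 0.45 (KIF7). Without fulvestrant replicate 1, the library that stood apart, KIF20B and KIF3A were called lower, with 205 of 11596 genes called in all. In MDA-MB-453, 6 of 27 were at an unadjusted p under 0.05, beside 1504 of 11080 genes. KIF21A was the only one called, where 0.397% of all genes were called lower and 1.01% higher. Its level was 105, 88.1 and 81.7 CPM under DMSO and 153, 151 and 122 CPM with fulvestrant, and the groups did not overlap. The log2 fold change was 0.57 ± 0.12 (adjusted p = 0.00739), with the call lost on leaving out DMSO replicate 2 or 3 or fulvestrant replicate 1 or 2 (adjusted p 0.0639 to 0.128). Without fulvestrant replicate 3, which stood apart, KIF16B, KIF20B and KIF5B were called higher too, with 786 of 11370 genes called in place of 156 of 11080. The mitotic sum was 641, 638 and 564 CPM with fulvestrant against 518, 551 and 500.2 CPM under DMSO in MDA-MB-453, and 1162, 887 and 972 against 1092, 1043 and 1120.1 CPM in MDA-MB-231. No single mitotic member passed the test in either line with all libraries, the intervals of KIF20A being -0.48 to 0.11 for MDA-MB-231 and -0.49 to 0.51 for MDA-MB-453 in log2. The mitotic median was -0.08 for MDA-MB-231 and 0.30 for MDA-MB-453, with 1 and 2 of the 12 at an unadjusted p under 0.05. These were KIF20B in MDA-MB-231 (interval -0.49 to -0.02), and KIF20B (0.06 to 0.61) and KIF23 (0.03 to 0.90) in MDA-MB-453.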

How the data were processed

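The authors trimmed 3′ RNA-seq reads, aligned them to hg38 with STAR and counted them per gene with featureCounts on a GENCODE annotation, and deposited raw counts of all 24 libraries in 1 table. How strand, multi-mapping reads and any molecular identifiers were handled is not given in the sources used here, so counting intervals and limits cover counting error only. A fold given as "at least" takes the count of the higher group as it stands and limits only the group at 0. The replicates are stated to be independent biological ones, and no pair differed by as little as repeated counting (chi-square per degree of freedom 2.64 to 8.65 in 24 pairs). One row without a gene name held 0 counts and was left out.

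Genes were filtered with filterByExpr, scaled by TMM and tested with the 2-sided quasi-likelihood test of edgeR 4.0.16 (R 4.3.3) on the 12 libraries of a line, or on all 24 for comparisons between lines. A gene was called where its p, adjusted after Benjamini-Hochberg across every tested gene, was below 0.05. SE is the absolute log2 fold change divided by the square root of F. CPM values use library totals without TMM, so they can differ slightly in direction from fold changes near 0. Medians over classes carry no test. The model was checked on simulated data. The members and lists were chosen with earlier results of these data known, and classes follow general knowledge of each motor's role. Members tested in at least 1 line are named, with full statistics for those called with a log2 fold change beyond 1 in size upon abemaciclib and for the largest called change in each other comparison. Alternatives were DESeq2 1.42.0, its size factors, no filter, nuclear genes only, only the groups compared, another class assignment, a replicate block and leaving out each library. Replicate numbers did not pair the libraries. Positions came from GENCODE and promoters from RefSeq.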

Additional observations from a re-analysis of the deposited data

Results flagged for a closer look

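The abemaciclib effect of 12 kinesins differed between the lines by the test of the difference itself (edgeR, MDA-MB-453 minus MDA-MB-231, in log2). The mitotic members fell further in MDA-MB-453: KIF4A by -5.23, KIF20A by -4.47, KIF2C by -4.46, KIF18A by -4.00, KIFC1 by -3.46, KIF14 by -3.41, KIF23 by -2.08, KIF11 by -1.72, KIF20B by -1.47 and KIF15 by -1.38. KIF1C differed by -0.35, having risen in MDA-MB-231 alone, and KIF5B by 0.88, having fallen in MDA-MB-231 alone. In 6 of these (KIF4A, KIF20A, KIF2C, KIF18A, KIFC1 and KIF14) the MDA-MB-453 abemaciclib group held between 5 and 23 counts, so the size of the difference is less certain than its direction. The KIF15 difference was not called without MDA-MB-453 abemaciclib replicate 1 (-1.03, adjusted p = 0.0705), nor that of KIF1C without MDA-MB-231 abemaciclib replicate 2 (-0.35, adjusted p = 0.0519) or without the filter on low counts (-0.37, adjusted p = 0.0649).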

How the results depend on the processing

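Members that passed the test kept their direction in every alternative. The sign of some values that did not pass it turned on leaving out 1 library, with these lowest and highest log2 values. Upon abemaciclib they were KIF1B -0.03 to 0.11, KIF3A -0.08 to 0.53, KIF27 -0.46 to 0.09, KIF18A -0.19 to 0.13, KIF21A -0.17 to 0.15, KIF16B -0.43 to 0.02 and KIF3B -0.12 to 0.07 for MDA-MB-231, and KIF21A -0.07 to 0.13 and KIF1C -0.01 to 0.09 for MDA-MB-453. With the combination they were KIF1B -0.03 to 0.06, KIF2A -0.14 to 0.11, KIF13B -0.25 to 0.51, KIF27 -0.52 to 0.01, KIF18A -0.16 to 0.26 and KIF3B -0.01 to 0.17 for MDA-MB-231, and KIF5B -0.11 to 0.02 and KIF21A -0.14 to 0.02 for MDA-MB-453. For the difference between the lines they were KIF5C -2.41 to 2.14, KIF3A -0.27 to 0.33, KIF13B -0.47 to 0.31, KIF21A -0.15 to 0.14 and KIFC3 -1.58 to 0.51, and with nuclear genes only KIF3A was at -0.03, KIF13B at -0.01 and KIF21A at -0.04. Between the DMSO groups they were KIF13A 0.00 to 0.38, KIF13B -0.66 to 0.13, KIF16B -0.31 to 0.16 and KIF3B -0.16 to 0.04.

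Without the filter on low counts, the mitotic median in MDA-MB-453 was -3.12 with abemaciclib and -3.27 with the combination, and with KIF2A, KIF24 and KIF25 counted as mitotic and KIF21A and KIF21B as transport it was -2.99 and -3.21. The unfiltered transport median with the combination was 0.09 for MDA-MB-231 and 0.18 for MDA-MB-453. The unfiltered fits called 2 members higher in MDA-MB-453 with fulvestrant (KIF16B in addition) and 2 in the combination against abemaciclib (KIF18A in addition), and 2 upward differences between the lines (KIF16B in addition), where DESeq2 called 3 (KIF16B and KIF1B in addition). The unfiltered fits no longer called KIF13A with abemaciclib in MDA-MB-453 (0.53, adjusted p = 0.0651) or the KIF1C difference (-0.37, adjusted p = 0.0649), and under DMSO they called KIF17 and not KIF27. The cause was not tested. KIF22 differed between the lines with nuclear genes only (-0.65, adjusted p = 0.0396), where the median of all genes was -0.142, and KIF18B in DESeq2 (-1.37, adjusted p = 0.035). With only the groups compared, KIF7 was called higher in the MDA-MB-231 combination and KIF3B in the MDA-MB-453 combination. Between the DMSO groups, KIF24 and KIF2A were called lower in MDA-MB-453 by DESeq2, and also by edgeR with its size factors.

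Leaving out each library in turn gave, in MDA-MB-231 with abemaciclib, 13 members lower, 4 to 5 higher, a mitotic median of -1.06 to -0.97 and a transport median of 0.07 to 0.39. With the combination it gave 13 to 14 lower, 5 to 7 higher, -1.05 to -0.95 and 0.01 to 0.51. Fulvestrant gave 0 to 2 lower, with 205 of 11596 genes called in the fit without replicate 1. In MDA-MB-453, abemaciclib gave 15 to 16 lower, 2 to 4 higher, -3.63 to -3.35 and 0.37 to 0.49, and the combination 13 to 16 lower, 1 to 2 higher, -4.04 to -3.61 and 0.20 to 0.28. Fulvestrant gave 0 to 4 higher (KIF16B, KIF20B and KIF5B joined KIF21A without fulvestrant replicate 3, where calls over all genes went from 156 of 11080 to 786 of 11370), and the combination against abemaciclib 0 to 1. Between the lines, 10 to 13 abemaciclib effects differed downwards and 1 to 2 upwards. Under DMSO 17 to 19 were lower and 5 higher in MDA-MB-453.

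Libraries of the same replicate number did not deviate together (correlations of -0.0923 to 0.0446 for MDA-MB-231 and -0.0647 to 0.0435 for MDA-MB-453). With a replicate block the counts were 13 lower and 5 higher for MDA-MB-231 and 16 and 4 for MDA-MB-453 upon abemaciclib, and the one call that changed in any comparison was KIF2A, lower under DMSO in MDA-MB-453 (19 in place of 18). Depth limits the MDA-MB-453 groups in which mitotic members held a few counts.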

Other observations

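The members below the filter on low counts are given by their counts. KIF17, a motor of dendrites and cilia, had 0, 3 and 9 counts in the MDA-MB-231 DMSO libraries, 3, 3 and 0 with abemaciclib, 1, 1 and 0 with fulvestrant and 2, 0 and 0 with the combination, so that the groups overlapped. It had 0 counts in every MDA-MB-453 library, and the edgeR fit without the filter called it between the DMSO groups of the lines. KIF26B, a relative of KIF26A, had 0 counts over the DMSO and abemaciclib groups of both lines. It had counts in all 6 combination libraries, with 2, 1 and 3 in MDA-MB-231 and 2, 2 and 7 in MDA-MB-453. KIF26B counts were also present with fulvestrant alone, 5 of them in a single library of the MDA-MB-453 group, and 8 libraries held any count of it. Against the limit of 3 counts per group, and with the few combination counts taken as they stand, the combination was at least 1.70-fold higher than DMSO in MDA-MB-231. In MDA-MB-453 it was at least 3.83-fold higher by the same rule. KIF21B had 4 counts in 1 abemaciclib and 6 in 1 combination library of MDA-MB-231 and none elsewhere. KIF4B and KIF6 each had 2 counts and KIF19 had 1, each in a single library.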
